A study of Mus musculus with 4 samples.

Results

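The genes examined were 54 genes of mitosis that were chosen by name: the mitotic cyclins and kinases, the spindle checkpoint, the anaphase-promoting complex or cyclosome (APC/C) with securin and separase, condensin, cohesin, the spindle motors, the kinetochore and the machinery of cytokinesis. A gene was measured through the Affymetrix probe sets annotated with its symbol alone, which gave values for 53 of the 54 genes, out of 18193 genes in all. The cyclin gene Ccnb1 had no such probe set and was not analysed here. The cells were E14, a mouse embryonic stem (mES) cell line kept with serum and leukaemia inhibitory factor. Zfp322a RNAi cells (n = 2 arrays) had received a plasmid expressing an shRNA against Zfp322a, which encodes a zinc finger protein, and control RNAi cells (n = 2 arrays) the pSuper.puro vector. The labels give 3 days of puromycin selection for both groups, and do not name the shRNA that was used for the arrays. The comparison addresses which genes of mitosis moved when Zfp322a mRNA was lowered.

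Entry into mitosis is driven by Cdk1 bound to its cyclins, which Wee1 restrains by phosphorylation, while Plk1 and the Aurora kinases build the spindle. Condensin compacts the chromosomes and cohesin holds sister chromatids together until the APC/C, held back by the spindle checkpoint, marks securin and the cyclins for destruction and so frees separase to cut cohesin. Mouse ES cells divide rapidly with short gap phases, so that genes of mitosis are strongly expressed in them.

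Values are log2 levels computed by the authors with RMA, and a change is the mean log2 value of Zfp322a RNAi minus that of control RNAi, given with its standard error from limma. A gene is said to have risen or fallen where its Benjamini-Hochberg adjusted p over all 18193 genes was under 0.05 with limma. The array medians lay between 6.07 and 6.11, and Pearson correlations over 45037 probe sets were 0.998 within both groups and between 0.989 and 0.990 across them. Zfp322a itself read 8.75 and 8.84 in control cells against 7.53 and 7.13 after depletion, a fall of 1.47 ± 0.14 to 36.2% of control (adjusted p = 0.00158 with limma). A second Zfp322a probe set read 8.82 and 8.89 against 7.08 and 6.89, a larger fall (-1.87 ± 0.09, adjusted p = 0.000935 over all probe sets, limma). All 10 ES cell markers examined had control means between 10.6 and 14.3, while 10 fibroblast markers lay between 3.85 and 7.33 in control cells. Of the first, Sall4 (0.29) rose and Tdgf1 (-0.59) and Esrrb (-0.41) fell, and of the second Pdgfrb (-0.87) and Thy1 (-0.56) fell, and their part in the mitotic changes was not tested. Whether the arrays of a group stand for separate cultures is not stated in the labels, and the p-values therefore reflect only how far these samples spread, which may be technical. On RNA from a whole culture, fewer cells in mitosis and less RNA per cell cannot be told apart.

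Mitotic genes moved in both directions after Zfp322a depletion, and mostly by small amounts. Among the 53 genes, 12 (22.6%) rose and 5 (9.43%) fell, while 36 did not pass the test. Over all genes, 14% rose and 14.4% fell, and 28.4% passed in either direction against 32.1% of the mitotic genes. All 53 lay above the array medians, and among the genes at or above the median level 22.8% rose and 21.3% fell in the same fit. The share that rose was thus near that of genes at or above the median level, and the share that fell was below theirs, though neither difference was tested. The median change was 0.01 over the mitotic genes and -0.04 over all genes, and the median size of a change was 0.20 against 0.16. All genes include dim ones, and no median size was computed at or above the median level. There the tenth to ninetieth percentiles ran from -0.44 to 0.52, wider than the -0.22 to 0.45 of the mitotic genes.

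Each gene was read from its brightest probe set, and in a tie from the first by ID. The rise of Plk4 (1.69-fold) and fall of Pttg1 (control over Zfp322a RNAi 1.74-fold) were the 2 changes past 1.5-fold on the probe sets used. The study applied that rule to array values without a test. Ncapg had 2 probe sets tied for brightest, and the one not used stood at -0.81, past 1.5-fold as well. With the probe sets of a gene averaged, Plk4 stood at 0.41, under 1.5-fold, while Stag2 (0.92) and Pttg1 (-0.87) were past it. On the probe sets used, 1.89% of the mitotic genes passed the rule in each direction, where 5.06% of all genes were higher and 3.2% lower. The 2 groups' arrays did not overlap for 43 genes (81.1%), 22 higher and 21 lower, against 62.6% of all genes and 80.1% of the genes at or above the median level. On their brightest probe sets, the 36 genes that did not pass had changes between -0.22 and 0.26 with 95% confidence intervals within 1.5-fold, from -0.43 to 0.48 at the widest. Other probe sets of Cenpf, Ncapg (the tied one) and Anln, all among these 36, fell by more than 1.5-fold, as given with the probe sets. For 10 of the 36 genes both Zfp322a RNAi arrays lay above both controls, and for 16 both lay below. The count of falls changed with the setting. With dim genes left out, which also shortens the list adjusted over, 16 of 53 mitotic genes were called higher and 15 lower. Of all 9103 genes kept, 29.5% were higher and 29.9% lower. The mitotic genes gained as lower were Anapc1, Ccna2, Ccnb2, Espl1, Foxm1, Kif11, Mki67, Ncaph, Smc1a and Top2a. Those gained as higher were Anln, Bub3, Ndc80 and Smc3. With a mean-variance trend, 17 of 53 mitotic genes were called higher and 16 lower. Of all 18193 genes, dim ones included, 16.9% were higher and 17.5% lower. The trend gained the same mitotic genes, and also Mad2l1 as higher and Kif23 as lower. With the trend, no share was computed for genes at or above the median level, so an excess among mitotic genes cannot be judged. Without any 1 array, 0 of all 18193 genes passed with limma, the mitotic genes included, and of the latter 14 to 25 had an unadjusted p under 0.05, against 27 with all arrays.

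**Figure D1:**
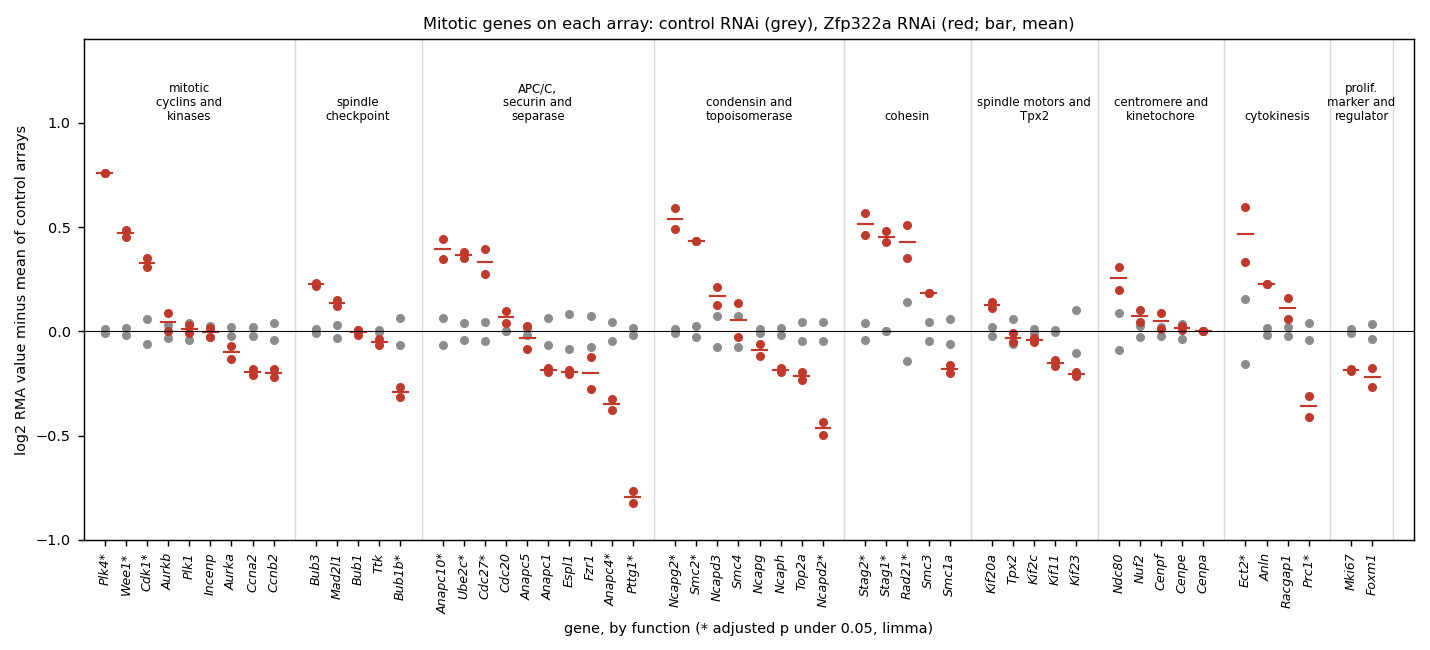
Log2 RMA values of single arrays relative to the control mean (y axis) for 53 mitotic genes ordered by function (x axis), with control RNAi arrays in grey, Zfp322a RNAi arrays in red and a red bar at their mean. Genes with an asterisk passed an adjusted p of 0.05 with limma, from Plk4 at 0.76 to Pttg1 at -0.80, and no gene of the spindle motor or kinetochore groups passed in this fit.

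**Figure D2:**
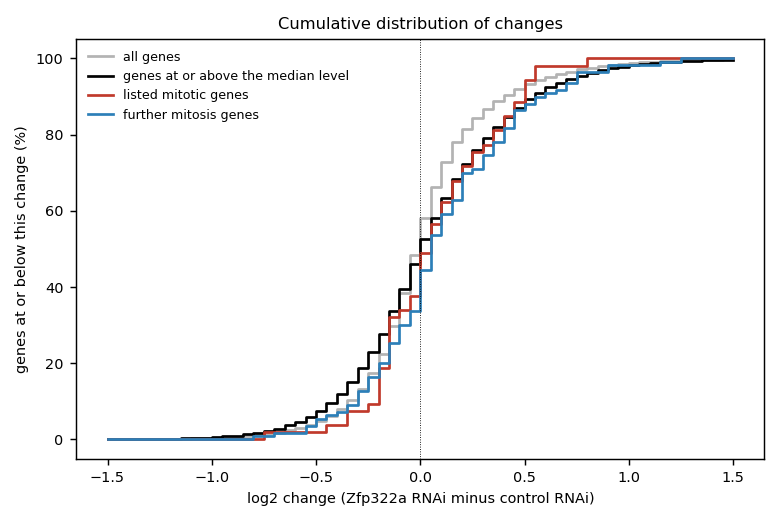
Share of genes (y axis, percent) with a log2 change at or below the value on the x axis, for all 18193 genes (grey), the 9103 genes at or above the median level (black), the 53 mitotic genes (red) and 110 further mitosis genes (blue). From the tenth to the ninetieth percentile the mitotic genes ran from -0.22 to 0.45 and the genes at or above the median level from -0.44 to 0.52.

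Many genes of late cell cycle share 2 promoter elements, the cell cycle homology region (CHR), which recruits the MuvB complex, and the CCAAT box, bound by NF-Y. These letters were searched on both strands in the 250 bases before the transcription start of each gene in the RefSeq promoter table (GRCm38.p6), CHR as TTTGAA or TTCGAA and the CCAAT box as CCAAT. The table held 43 of the 53 genes. A CHR stood in 16 of 43 windows (37.2%) against 17.4% of 27025 promoters, a CCAAT box in 29 (67.4%) against 34.5%, and both in 14 (32.6%) against 6.2%. The same counts by outcome were 5 of 9 with a CHR among genes that rose, 2 of 5 among those that fell and 9 of 29 among those that did not pass, and 6 of 9, 3 of 5 and 20 of 29 with a CCAAT box. Genes with these letters were thus found in every outcome, and their part in the changes was not tested. The windows of the largest rises and falls with an entry in the table, and of Cdk1, are printed 5′ to 3′ with matches in capitals (ATTGG is CCAAT read from the other strand). The window of Plk4 is chr3:40799701-40799950 on the plus strand, that of Ncapg2 chr12:116405186-116405435 on the plus strand, that of Ect2 chr3:27153879-27154128 on the minus strand and that of Cdk1 chr10:69352913-69353162 on the minus strand. That of Pttg1 is chr11:43425982-43426231 on the minus strand, that of Ncapd2 chr6:125191587-125191836 on the minus strand and that of Prc1 chr7:80294201-80294450 on the plus strand.
Plk4: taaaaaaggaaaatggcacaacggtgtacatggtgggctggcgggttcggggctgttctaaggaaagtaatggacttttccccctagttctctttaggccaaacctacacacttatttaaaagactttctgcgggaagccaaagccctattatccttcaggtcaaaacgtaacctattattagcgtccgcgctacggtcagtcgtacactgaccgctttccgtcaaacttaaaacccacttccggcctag
Ncapg2: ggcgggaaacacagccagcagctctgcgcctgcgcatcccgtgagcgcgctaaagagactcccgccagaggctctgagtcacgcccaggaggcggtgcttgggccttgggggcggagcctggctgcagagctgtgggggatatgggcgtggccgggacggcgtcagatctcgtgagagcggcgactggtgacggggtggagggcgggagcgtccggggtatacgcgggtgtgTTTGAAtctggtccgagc
Ect2: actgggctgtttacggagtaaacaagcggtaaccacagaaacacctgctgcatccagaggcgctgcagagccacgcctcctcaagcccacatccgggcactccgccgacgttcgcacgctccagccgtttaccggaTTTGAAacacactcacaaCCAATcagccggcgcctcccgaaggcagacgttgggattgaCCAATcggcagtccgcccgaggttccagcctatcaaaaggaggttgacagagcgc
Cdk1: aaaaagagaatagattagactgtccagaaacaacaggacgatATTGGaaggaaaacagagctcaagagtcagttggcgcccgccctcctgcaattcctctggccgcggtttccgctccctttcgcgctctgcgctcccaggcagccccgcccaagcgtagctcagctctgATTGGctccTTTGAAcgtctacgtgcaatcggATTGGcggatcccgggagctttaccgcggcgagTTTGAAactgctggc
Pttg1: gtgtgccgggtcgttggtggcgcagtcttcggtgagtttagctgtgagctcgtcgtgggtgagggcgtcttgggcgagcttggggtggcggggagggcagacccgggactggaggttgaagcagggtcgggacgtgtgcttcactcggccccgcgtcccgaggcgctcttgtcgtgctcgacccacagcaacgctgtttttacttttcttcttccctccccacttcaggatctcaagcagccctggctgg
Ncapd2: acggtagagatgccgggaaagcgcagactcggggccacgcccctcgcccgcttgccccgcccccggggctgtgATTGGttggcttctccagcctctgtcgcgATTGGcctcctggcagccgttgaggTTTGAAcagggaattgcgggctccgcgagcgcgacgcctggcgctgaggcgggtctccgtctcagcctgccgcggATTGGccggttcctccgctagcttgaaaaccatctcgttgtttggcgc
Prc1: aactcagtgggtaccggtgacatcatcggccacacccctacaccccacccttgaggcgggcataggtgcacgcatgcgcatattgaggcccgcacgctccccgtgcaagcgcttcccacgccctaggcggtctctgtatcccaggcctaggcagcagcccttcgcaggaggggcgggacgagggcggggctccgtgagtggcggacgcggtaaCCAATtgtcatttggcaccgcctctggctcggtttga
On the probe sets used, the largest rise and fall were those of Plk4 and Pttg1, whose windows held none of the letters searched. Cdk1 held 2 CHR and 3 CCAAT matches and Ncapd2, which moved the other way, 1 CHR and 3 CCAAT matches.

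Among the 9 mitotic cyclins and kinases, 3 kinases rose and the other 6 genes, the cyclins among them, did not pass the test. Plk4, the kinase that starts centriole duplication, read 10.37 and 10.35 in control and 11.12 on both arrays of Zfp322a RNAi cells (0.76 ± 0.07, adjusted p = 0.00142 with limma). The gene had 2 dimmer probe sets, of which 1 rose by 0.51 and the other stood at -0.04. Wee1, the kinase that keeps Cdk1 inactive, read 10.18 and 10.15 in control and 10.62 and 10.65 in Zfp322a RNAi cells (0.47 ± 0.07, adjusted p = 0.00495 with limma), and its dimmer probe set rose by 0.69. Cdk1, its target and the kinase that drives mitotic entry, read 11.60 and 11.72 in control and 11.97 and 12.01 in Zfp322a RNAi cells (0.33 ± 0.08, adjusted p = 0.0235 with limma). So the kinase and its inhibitor were both higher on both Zfp322a RNAi arrays, by 1.26-fold and 1.39-fold. The partner cyclin Ccnb2 read 11.48 and 11.56 against 11.30 and 11.34, without overlap of the groups' arrays, and did not pass the test (-0.20 ± 0.07, adjusted p = 0.0884 with limma). Ccna2 read 11.43 and 11.39 against 11.20 and 11.23 and did not pass either (-0.20 ± 0.07, adjusted p = 0.0828 with limma). Its second probe set, at 10.93 and 11.05 against 11.10 and 11.16, stood at 0.14, so that the probe sets of Ccna2 disagreed in sign and their mean was -0.03. Plk1 (0.01), Aurka (-0.10), Aurkb (0.05) and Incenp (-0.01), the scaffold of the chromosomal passenger complex, did not pass.

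The spindle checkpoint delays anaphase until each kinetochore is attached, and 1 of its 5 genes passed the test. Bub1b, which encodes the checkpoint protein BubR1, read 10.85 and 10.98 in control and 10.60 and 10.65 in Zfp322a RNAi cells (-0.29 ± 0.08, adjusted p = 0.0384 with limma). A second probe set of nearly the same level stood at -0.28, and the call of Bub1b ended with array centring (adjusted p = 0.0573 with limma) and with its probe sets averaged (0.0996). Bub3, the partner of both BubR1 and Bub1, read 12.25 and 12.27 against 12.49 and 12.48 and lay just outside the threshold (0.23 ± 0.07, adjusted p = 0.0518 with limma). All 5 probe sets of Bub3 were higher. Bub3 passed with array centring (adjusted p = 0.0388 with limma), repeated quantile normalization (0.037) and its probe sets averaged (0.0369). It passed too without probe sets that may cross-hybridize (0.04), but not with a replicate block (0.0892). Mad2l1, the checkpoint effector Mad2, read 11.81 and 11.87 against 11.96 and 11.99 (0.14 ± 0.07, adjusted p = 0.206 with limma). The checkpoint kinase genes Bub1 (-0.01) and Ttk (-0.05) were the closest of the group to 0. Bub1b thus lay below its control while its partners Bub3 and Mad2l1 lay above theirs.

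The APC/C group held the largest fall on the probe sets used, and its subunits did not move together. Pttg1, the securin that inhibits separase, read 13.06 and 13.09 in control and 12.25 and 12.31 in Zfp322a RNAi cells. It fell by 0.80 ± 0.07 to 57.6% of control (adjusted p = 0.00142 with limma), and its 2 dimmer probe sets fell by 0.96 and 0.84. All 3 of its probe sets gave a like fall, so the change did not rest on 1 set of probes. Separase itself, Espl1, read 10.63 and 10.80 against 10.53 and 10.51, which did not pass (-0.20 ± 0.08, adjusted p = 0.139 with limma).

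Of the APC/C itself, Anapc10, a subunit that helps to bind substrates, read 10.68 and 10.55 in control and 11.06 and 10.96 in Zfp322a RNAi cells (0.40 ± 0.08, adjusted p = 0.0167 with limma). Ube2c, the ubiquitin-conjugating enzyme that works with the APC/C, read 12.42 and 12.50 against 12.81 and 12.84 (0.37 ± 0.07, adjusted p = 0.0133 with limma). Cdc27, the Apc3 subunit, rose by 0.34 ± 0.08 (adjusted p = 0.0260 with limma), and its 3 dimmer probe sets rose as well, by 0.49 to 0.93. Against these rises, the scaffold subunit gene Anapc4 read 10.38 and 10.47 in control and 10.10 and 10.05 in Zfp322a RNAi cells (-0.35 ± 0.07, adjusted p = 0.0169 with limma). Its other probe set did not pass (-0.25), and the call of Anapc4 ended once probe sets that may cross-hybridize were removed (adjusted p = 0.127 with limma). The study's primer list held a ChIP primer pair for Anapc4, and the forward primer, printed below, matched chr5:52834042-52834062 of GRCm38.p6, 93 bases upstream of the start.
Anapc4 forward primer: tgctgtgccactcacttcctc
The reverse primer did not match within the window. The activators Cdc20 (0.07) and Fzr1 (-0.20) and the subunits Anapc1 (-0.19) and Anapc5 (-0.03) did not pass. In all, 3 genes of this group rose, 2 fell and 5 did not pass.

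Condensin genes divided between the complexes' subunits. Cells build condensin I and condensin II from the same ATPases, Smc2 and Smc4, with different regulatory subunits, Ncapd2, Ncapg and Ncaph in condensin I and Ncapd3 and Ncapg2, among others, in condensin II. Ncapg2 read 9.31 and 9.29 in control and 9.89 and 9.79 in Zfp322a RNAi cells, the largest rise of the group (0.54 ± 0.07, 1.45-fold, adjusted p = 0.00413 with limma). Ncapd2 read 10.56 and 10.65 against 10.11 and 10.17 and fell to 72.4% of control (-0.47 ± 0.07, adjusted p = 0.00675 with limma). The other condensin I subunits, Ncaph (-0.19) and Ncapg (-0.09), did not pass on the probe sets used, nor did Ncapd3 of condensin II (0.17). A second Ncapg probe set of equal mean level fell by 0.81 (adjusted p = 0.00209 over all probe sets, limma). With its probe sets averaged, Ncapg fell by 0.45 (adjusted p = 0.00419 with limma). By sign, the 3 condensin I subunits listed were below 0 and the 2 of condensin II above 0, although Ncaph2, a condensin II subunit outside the list, fell (described with the further genes). The difference between the complexes was not tested.

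Smc2, the ATPase of both complexes, read 11.72 and 11.67 in control and 12.13 on both Zfp322a RNAi arrays on its brightest probe set (0.44 ± 0.07, adjusted p = 0.00651 with limma). Its probe sets disagreed, however: the next brightest one read 10.94 and 10.91 against 10.62 and 10.58 (-0.33 ± 0.08, adjusted p = 0.0309 over all probe sets, limma), 3 more lay between -0.15 and -0.02, and the mean of all 5 gave -0.04. The direction of Smc2 is therefore uncertain. Smc4 did not pass (0.06 ± 0.09). Top2a, the topoisomerase that untangles sister DNA, read 12.81 and 12.90 in control and 12.62 and 12.66 in Zfp322a RNAi cells and did not pass (-0.22 ± 0.07, adjusted p = 0.0754 with limma).

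Cohesin had the highest median change of the groups, 0.43 over its 5 genes, of which 3 rose and 2 did not pass the test. Among genes at or above the median level 22.8% rose, and this small group was not tested against that share. Stag2, an SA subunit of cohesin, read 9.62 and 9.54 in control and 10.04 and 10.15 in Zfp322a RNAi cells (0.52 ± 0.08, 1.43-fold, adjusted p = 0.00574 with limma). Its dimmer probe set went from 7.05 and 7.32 to 8.51 on both arrays, a rise of 1.33. Stag1, the alternative SA subunit, read 10.41 on both control arrays and 10.89 and 10.84 after Zfp322a RNAi (0.46 ± 0.07, adjusted p = 0.00560 with limma), and of its 6 probe sets all were higher and 5 passed over all probe sets. Both SA genes were thus higher on more than 1 probe set. Rad21, the kleisin that separase cuts, read 12.16 and 11.88 in control and 12.53 and 12.37 in Zfp322a RNAi cells (0.43 ± 0.12, adjusted p = 0.0384 with limma). The control arrays of Rad21 lay further apart than those of the other cohesin genes, and its change was 0.57 without control replicate 1 and 0.29 without control replicate 2. Its dimmest probe set rose by 0.98, and another with arrays far apart stood at 0.09. The ATPase subunits went opposite ways and did not pass on their brightest probe sets, Smc3 at 0.19 ± 0.07 and Smc1a at -0.18 ± 0.08. All 3 probe sets of Smc1a were lower, and its dimmest fell by 0.45 (adjusted p = 0.0144 over all probe sets, limma).

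No gene among the 5 spindle motors and Tpx2, or among the 5 genes of the centromere and kinetochore, passed the test on its brightest probe set with limma, and of these 10 Ndc80 alone had an unadjusted p under 0.05. Kif23, a motor of the central spindle, stood furthest from 0 among the motors, with 10.12 and 10.33 in control and 10.01 and 10.03 in Zfp322a RNAi cells (-0.21 ± 0.09, adjusted p = 0.152 with limma). Kif11, which pushes spindle poles apart, read 10.29 and 10.30 against 10.16 and 10.13 (-0.15 ± 0.07, adjusted p = 0.154 with limma). Kif20a, a motor of late mitosis, read 10.72 and 10.76 against 10.88 and 10.85 (0.13 ± 0.07, adjusted p = 0.231 with limma). The depolymerase Kif2c (-0.04) and the spindle assembly factor Tpx2 (-0.03) lay near 0. At the kinetochore, Ndc80, which holds microtubules, read 9.69 and 9.87 against 10.09 and 9.98 (0.26 ± 0.09, adjusted p = 0.0878 with limma). Its partner Nuf2 read 8.67 and 8.62 against 8.75 and 8.69 (0.08 ± 0.07, adjusted p = 0.480 with limma). Cenpa, the centromeric histone H3 variant, read 11.90 on all 4 arrays. Cenpe, a kinetochore motor, stood at 0.02, and Cenpf read 11.44 and 11.48 against 11.47 and 11.55 on its brightest probe set (0.05 ± 0.07). The 2 dimmer probe sets of Cenpf fell, by 1.05 and 0.49, as given with the probe sets. A dimmer probe set each of Kif11, Kif2c and Tpx2 fell too, while another of each was higher without passing.

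Among the 4 genes of cytokinesis, 1 rose and 1 fell. Ect2, the exchange factor that activates RhoA at the cleavage furrow, read 11.50 and 11.19 in control and 11.94 and 11.68 in Zfp322a RNAi cells (0.47 ± 0.14). It passed by the narrowest margin of all 53 genes (adjusted p = 0.0497 with limma) and no longer passed after repeated quantile normalization (0.0509). Prc1, which bundles the microtubules of the central spindle, read 10.89 and 10.97 against 10.52 and 10.62 (-0.36 ± 0.08, adjusted p = 0.0178 with limma), and its other probe set fell by 0.42. Anln, the anillin of the contractile ring, read 11.42 and 11.39 against 11.63 on both Zfp322a RNAi arrays and lay just outside the threshold (0.23 ± 0.07, adjusted p = 0.0522 with limma). Anln passed as higher with array centring and with repeated quantile normalization, while its dimmer probe set fell. Racgap1, the partner of Ect2, stood at 0.11.

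Mki67, the Ki-67 antigen of cycling cells, read 11.80 and 11.78 in control and 11.61 and 11.60 in Zfp322a RNAi cells (-0.19 ± 0.07, adjusted p = 0.0907 with limma). Foxm1, a transcription factor of G2 and M phase genes, read 8.12 and 8.05 against 7.82 and 7.91 (-0.22 ± 0.07, adjusted p = 0.0761 with limma). Both were lower on both Zfp322a RNAi arrays without passing the test, at 88.0% and 85.9% of control.

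How far a gene's value depended on the probe set was examined next, since 40 of the 53 genes had more than 1 and up to 6. Of the 17 genes that passed, 4 had a single probe set (Cdk1, Ube2c, Ncapg2 and Ect2) and 13 had more. In 10 of these 13, every probe set lay in the direction of the call, the exceptions being Plk4, Smc2 and Bub1b, whose odd probe set was dim (0.06). When the adjustment ran over all probe sets instead of genes, the probe sets used for Bub1b, Ect2 and Rad21 no longer passed (adjusted p = 0.0609, 0.0640 and 0.0517 with limma). Of 27 genes that did not pass and had further probe sets, 12 had one that passed over all probe sets, lower for 10 and higher for 2. The same count was not made over all genes, so whether this lean is particular to mitotic genes cannot be judged. Cenpf was the largest such case: its second probe set went from 10.15 and 10.26 to 9.17 and 9.14 (-1.05 ± 0.08, adjusted p = 0.00150 over all probe sets, limma) and the dimmest one fell by 0.49. Ncapg had 2 probe sets of equal mean level, 10.5, which read 10.57 and 10.59 against 10.52 and 10.46 on the one and 10.95 and 10.93 against 10.12 and 10.14 on the other (-0.81 ± 0.08, adjusted p = 0.00209 over all probe sets, limma). For Cenpf and Ncapg the brightest probe set therefore gave no call where another showed a clear fall, and which one stands for the gene was not tested. Dimmer probe sets also fell for Anln (0.61 on the log2 scale), Top2a (0.49), Smc1a (0.45), Kif2c (0.43), Foxm1 (0.36), Racgap1 (0.32), Kif11 (0.31) and Tpx2 (0.30). Those of Bub3 and Smc4 rose, by 0.49 and 0.35. Over all 135 probe sets of these genes, 24 rose and 19 fell, as against 4774 and 4266 of 45037. The latter include dim probe sets and those without a gene symbol. No share was computed for probe sets of like level, so an excess cannot be judged.

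**Figure D3:**
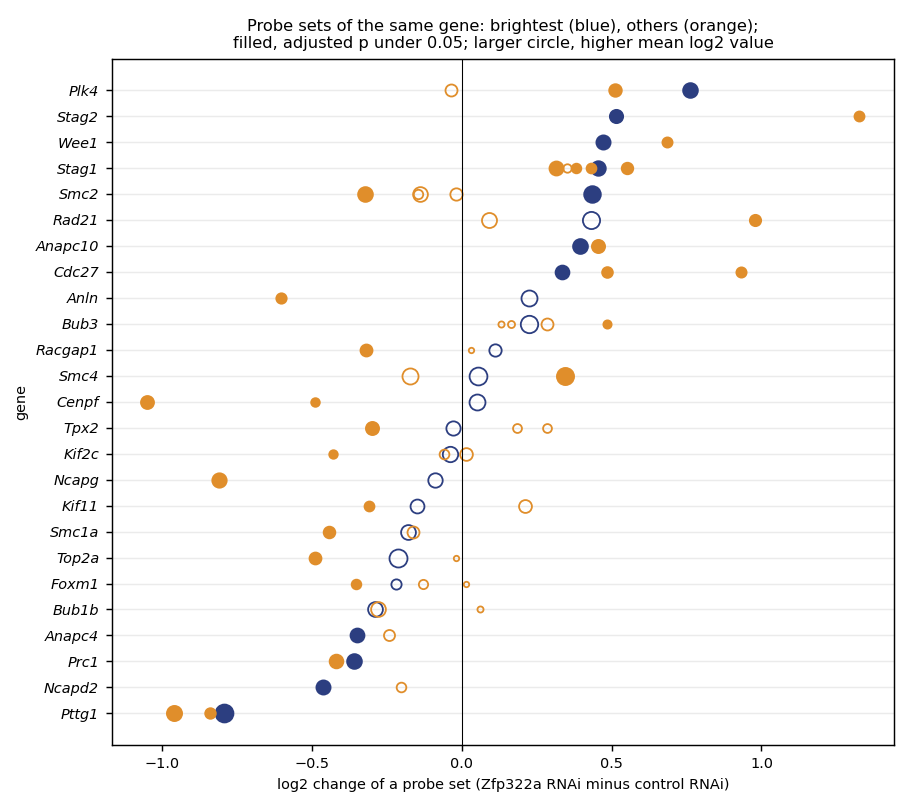
Log2 change (x axis, Zfp322a RNAi minus control RNAi) of every probe set of 25 mitotic genes (y axis) that had more than 1 probe set and at least 1 call. Blue circles are the brightest probe set and orange ones the others, filled where the adjusted p over all probe sets was under 0.05 with limma, and larger for a higher mean level. The probe sets of Pttg1 lie together between -0.96 and -0.80, whereas those of Smc2 run from -0.33 to 0.44 and those of Cenpf from -1.05 to 0.05.

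A further 110 genes of mitosis outside the 53 were examined as a list, of 112 written down. Of these, 31 rose (28.2%), 16 fell (14.5%) and 63 did not pass. The shares were 14% and 14.4% of all genes, and 22.8% and 21.3% of the genes at or above the median level, where most but not all of the list lay. The median change was 0.02. The largest rises were those of Lin9, a core subunit of the MuvB complex that binds the CHR, and Rbl2, the pocket protein p130 that joins MuvB in the repressive DREAM complex. Lin9 went from 8.48 and 8.20 to 9.69 and 9.41 (1.21 ± 0.13, 2.31-fold, adjusted p = 0.00240 with limma) and Rbl2 from 6.64 and 6.63 to 7.88 and 7.62 (1.12 ± 0.10, 2.17-fold, adjusted p = 0.00151 with limma). Each had a dimmer probe set, which stood at 0.12 for Lin9 and did not pass, and rose by 0.86 for Rbl2. Both Zfp322a RNAi arrays lay above both control arrays for these genes. The other DREAM or MuvB genes that passed were Lin54 (0.70), Rbl1 (0.55) and Tfdp1 (0.44), which rose, and Mybl2 (-0.28), the activating B-Myb, which fell. Lin37 (-0.04), Lin52 (0.005) and E2f4 (0.03), of the same complexes, did not pass. These genes were not tested as a set.

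Of 28 further genes of the centromere, kinetochore and centriole, 12 rose and 3 fell, with a median of 0.20. Over all genes 14% rose and 14.4% fell, and at or above the median level 22.8% and 21.3%. No group of this list was tested against these shares. Ska3 (0.90 ± 0.11) and Ska2 (0.88 ± 0.07), subunits of the Ska complex that keeps kinetochores on microtubules, and the inner kinetochore gene Cenpq (0.74 ± 0.07) led the rises, with adjusted p between 0.00117 and 0.00296 with limma. Cenpm (-0.53 ± 0.09), of the same inner kinetochore network, fell. Among 17 further checkpoint and APC/C genes, 3 rose and 2 fell. Anapc2, the cullin of the APC/C's catalytic core, read 9.81 and 9.91 in control and 9.07 and 9.03 in Zfp322a RNAi cells, the largest fall of the list (-0.81 ± 0.07, 57.0% of control, adjusted p = 0.00151 with limma). Anapc11 (-0.39), the RING subunit that pairs with it, also fell, and Anapc16 (0.73) rose. APC/C subunit genes thus moved in both directions in this list as in the first.

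Of 14 condensin and cohesin regulators, 5 rose and 3 fell. Esco2, which acetylates cohesin, rose by 0.64, and the cohesin guardians Sgo1 (0.38) and Sgo2a (0.32) and the cohesin partners Pds5a (0.26) and Pds5b (0.31) rose too. The condensin II subunit gene Ncaph2 (-0.45), the sororin gene Cdca5 (-0.30) and Stag3 (-0.57 ± 0.07, adjusted p = 0.00345 with limma), the SA subunit of meiotic cohesin, fell. Ncaph2 thus lay opposite to Ncapg2 of the same complex. Among 24 spindle motor and microtubule genes 5 rose and 4 fell, and the augmin complex, which branches spindle microtubules, was divided: Haus1 (-0.70 ± 0.09) and Haus5 (-0.60 ± 0.08) fell while Haus4 (0.55) and Haus6 (0.50) rose. Of 16 further kinases and regulators, Nek6 (-0.33), Haspin (-0.32) and Ccnf (-0.39) fell and the other 13 did not pass. Of 11 genes of cytokinesis and mitotic transcription, 6 rose and 1 fell.

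**Figure D4:**
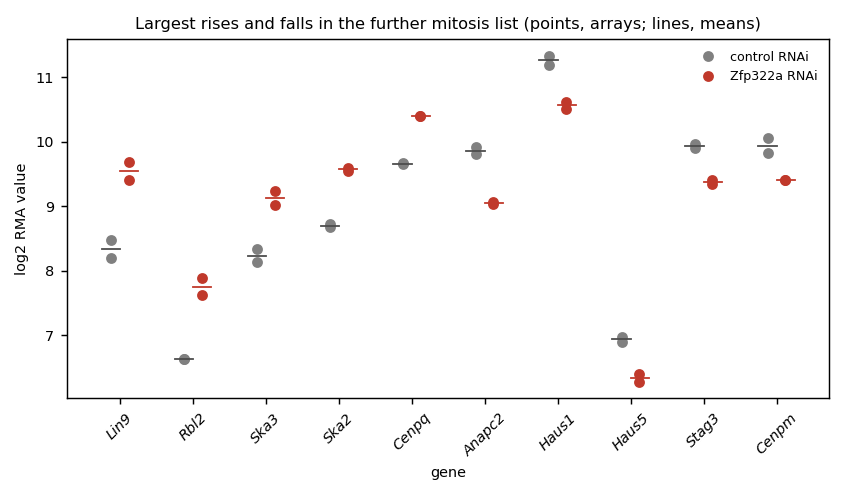
Log2 RMA values (y axis) of the 5 largest rises and 5 largest falls past the adjusted p in the list of 110 further mitosis genes (x axis), with control RNAi arrays in grey, Zfp322a RNAi arrays in red and lines at the group means. Lin9 goes from a mean of 8.34 to 9.55 and Anapc2 from 9.86 to 9.05, and the groups' arrays do not overlap for any of the 10 genes.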

How the data were processed

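Total RNA of 4 samples of E14 cells was hybridised to Affymetrix MG430 2.0 arrays, 1 array per sample. The authors processed the arrays with RMA (background correction, quantile normalization, probe set summary; version not given in the sources used here), and the deposited values were used as log2 levels. Quantile normalization makes array distributions alike, so a shift shared by all genes would be removed. The study's methods give a longer puromycin selection than the labels.

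Probe sets with 1 symbol in the platform annotation (34945 of 45037) were used, with symbols updated through the RefSeq gene table (34741 matched), and the probe set of highest mean stood for each of 18193 genes. Groups were compared with limma 3.58.1 in R 4.3.3 (lmFit, eBayes, two-sided, with group as the single term and 2 residual degrees of freedom, Benjamini-Hochberg adjustment over all genes). For 1 gene, the smallest p of an exact permutation test is 0.333 here. On simulated data for this comparison over 18193 genes, 52.2% of genes changed 1.5-fold, 80.6% changed 2-fold and 95.5% changed 4-fold were recovered. The simulation changed 66 or 67 genes per size and shuffled the variances across genes, whereas 5164 genes passed in the data. Its rates therefore need not hold for these data or for the mitotic genes. The number of arrays limits the precision. The alternatives were array centring, repeated quantile normalization, the mean of a gene's probe sets, dim genes left out, removal of probe sets that may cross-hybridize (IDs with _x_at or _s_at), a replicate block, a variance trend and each array left out.

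The members and gene lists were chosen with earlier results of these data known. Named with values are all members that passed, up to 3 of largest change per functional group, Cdk1, Top2a and Mki67, and the 5 largest rises and falls of the further list; other genes that passed there were named after their values were seen. Anapc4's primer was looked up because the study's list holds it. Promoter windows are the first entry per gene.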

Additional observations from a re-analysis of the deposited data

How the results depend on the processing

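The 17 calls kept their direction under every alternative except for Smc2, which turned to -0.039 when a gene's probe sets were averaged, as did Cenpf, not called before, to -0.497 (adjusted p = 0.00332 with limma). The median change over the 53 genes, 0.01, ranged from -0.027 to 0.04 over the alternatives. Without any 1 array, 0 of all genes, and so 0 listed and 0 further mitosis genes, passed with limma, and genes 1.5-fold higher numbered 1 to 3, Ect2 (0.62) joining without control replicate 1 and Ncapg2 (0.59) and Ect2 (0.60) without Zfp322a RNAi replicate 2. With a replicate block, 7 listed genes were called higher and 3 lower, 10 of the 17 calls being kept and those of Anapc4, Bub1b, Cdc27, Cdk1, Rad21, Stag2 and Ube2c lost, and 19 further genes higher and 8 lower, while calls over all genes went from 5164 to 2643. Same-numbered arrays deviated together with r = 0.04 over genes, so they share a number and no known pairing. Genes called lower numbered 15 with dim genes left out, 8 with averaged probe sets and 16 with a variance trend, which also gave 25 further genes lower. Without probe sets that may cross-hybridize, 0 of 52 genes were 1.5-fold higher. The causes were not tested. Genes changed 1.5-fold were recovered less often in simulation than those changed further, and with 2 arrays a group a gene that did not pass cannot be taken as unchanged.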
